A study of Mus musculus with 3 samples.

Results

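Ribosomal and transfer RNA made up the bulk of the annotated small RNA in extracellular vesicles (EVs) from mouse testis at postnatal day 7 (PND7). The members described here are the entries of the deposited catalogues that carry the type rRNA or tRNA and whose description names neither bacteria nor archaea. There were 9 such families, 7 of rRNA and 2 of tRNA, among 2780 small RNA entries, and another 4 rRNA entries were left out for their names. EVs were isolated from the digested testes of male C57/BL6 mice, with 10 mice for each preparation, and treated with proteinase K, PMSF and RNase A before RNA extraction, so as to remove protein and RNA outside the vesicle membrane. The 3 libraries, replicates 1 to 3, are biological replicates of the same condition. The sample titles include the word treated, which the source field does not repeat, and no untreated, adult or cellular library was compared. A count is a sequenced short read, so the values describe reads from these RNAs and do not tell whole short RNAs from fragments. Bulk EV counts also cannot tell more vesicles that carry an RNA from more RNA in each vesicle. The EVs come from whole decapsulated testis, and which cells released them was not measured.

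A ribosome holds a small subunit built on 18S rRNA and a large subunit built on 28S, 5.8S and 5S rRNA. RNA polymerase I makes 18S, 5.8S and 28S rRNA as parts of a common precursor, whereas RNA polymerase III makes 5S rRNA and the tRNAs from separate genes. tRNAs carry amino acids to the ribosome, and the selenocysteine tRNA reads a UGA codon to place selenium in selenoproteins such as the glutathione peroxidase that builds the sperm midpiece. rRNA and tRNA are the most abundant RNAs of most cells, and their fragments are common in small RNA libraries of cells, EVs and sperm.

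The authors assigned reads to families of the Rfam database, and a family joins all genes of its kind. The start of 18S rRNA is shown because the small subunit family drew the most reads. An annotated copy of 18S rRNA lies at chr17:39846353-39848201 (GRCm38). GENCODE names it CT010467.1 and places it on the minus strand, but the 18S sequence reads along the plus strand, and its first 100 bases (chr17:39846353-39846452) are printed in lower case because no base within them was measured apart from the others.
18S rRNA: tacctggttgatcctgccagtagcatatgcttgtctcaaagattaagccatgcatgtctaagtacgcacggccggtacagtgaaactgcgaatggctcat
The tRNA family joins many genes, since RefSeq lists 408 nuclear and 22 mitochondrial tRNA genes in GRCm38, from 59 to 107 bases long. The catalogues resolve tRNA into only the general family and the selenocysteine family, so neither amino acid nor anticodon can be given for the rest.

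Clean reads numbered 25716952, 26002463 and 27939308 in replicates 1, 2 and 3. The 9 families together held 7437761, 6668611 and 7609105 of these reads, or 28.9%, 25.6% and 27.2% of the clean reads in the same order (mean 27.3% ± 1.64, SD, n = 3). They were 76.9% ± 1.38 of the reads annotated as small RNA (SD, n = 3). Of the 2780 entries, the 5 with the highest mean CPM (counts per 1000000 clean reads of a library) were the small subunit, 5.8S, general tRNA, large subunit and 5S families, and the selenocysteine tRNA ranked 64th. The 6 families with at least 1000 counts in every library are described in full. Their exact binomial (Clopper-Pearson) 95% intervals reached at most 2.64% of the value to either side, which covers counting error only since PCR copies were not told apart. The SD between libraries is the error used below.

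**Figure D1:**
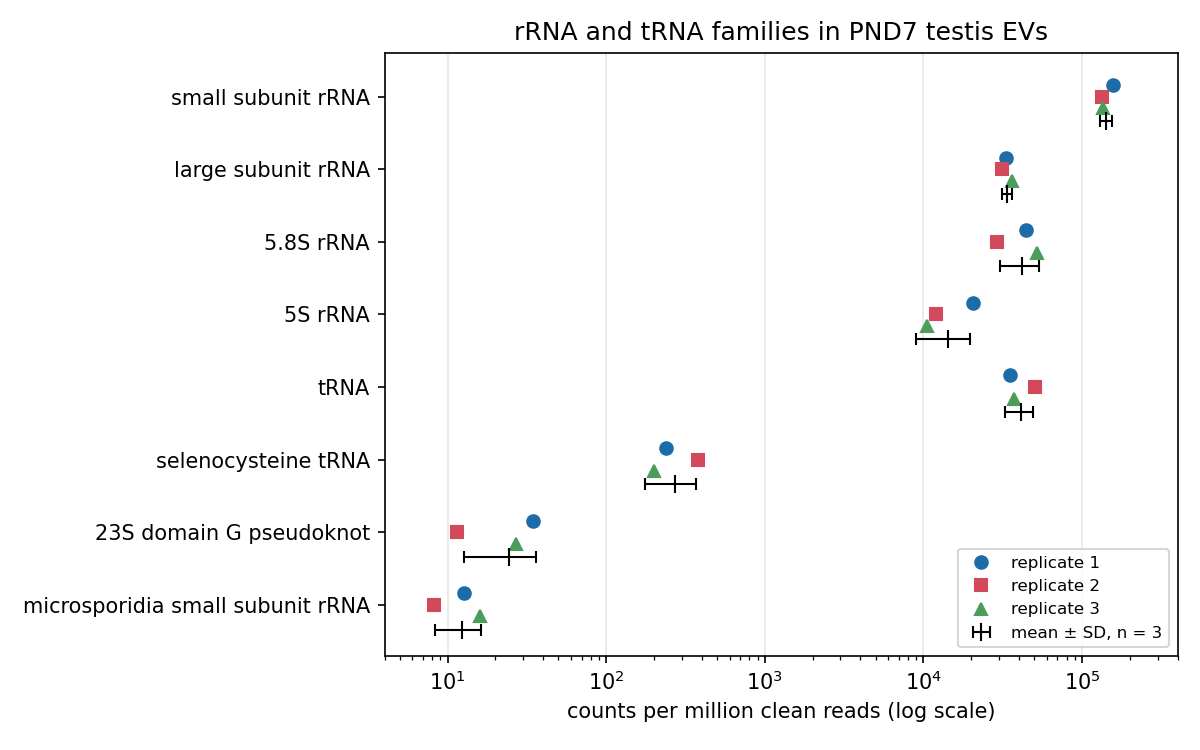
CPM of clean reads (log axis) of 8 rRNA and tRNA families in each of the 3 libraries (coloured symbols), with mean and SD in black. The small subunit family lies at or above 133077 CPM in every library, the next 4 families lie between 10507 and 51906 CPM, and the selenocysteine tRNA lies between 199 and 382 CPM. The permuted mitochondrial 5S family, with 2 counts or fewer, is not drawn.

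The small subunit family, which holds 18S rRNA, was the most counted small RNA in all libraries. It had 155740 CPM in replicate 1, 133077 in replicate 2 and 136083 in replicate 3 (mean 141634 ± 12309, SD, n = 3). Its highest value was only 1.17 times its lowest, and it made up 61.4% ± 3.39 of the reads of the rRNA families described here (SD, n = 3). Replicate 1 was the high library, and the other two lay close together.

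The large subunit family, which holds 28S rRNA, was the steadiest of the 6. It had 33247 CPM in replicate 1, 31329 in replicate 2 and 36137 in replicate 3 (mean 33571 ± 2420, SD, n = 3). The highest value was 1.15 times the lowest, and replicate 3 was the high library here.

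5.8S rRNA, a short RNA that pairs with 28S rRNA in the large subunit, varied more. It had 44517 CPM in replicate 1, 29085 in replicate 2 and 51906 in replicate 3 (mean 41836 ± 11644, SD, n = 3). Replicate 2 stood below the others, and the highest value was 1.78 times the lowest. As a part of the rRNA reads, 5.8S rRNA ranged from 14.2% in replicate 2 to 22.1% in replicate 3.

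5S rRNA, the large subunit RNA made by RNA polymerase III, was the least counted of the 4 main rRNA families and had the widest range of them. It had 20410 CPM in replicate 1, 11990 in replicate 2 and 10507 in replicate 3 (mean 14302 ± 5341, SD, n = 3). Replicate 1 was the high library, at 1.94 times replicate 3, and replicate 3 stood at 0.876 times replicate 2. 5S rRNA thus made up 8.04% of the rRNA reads in replicate 1 but 4.48% in replicate 3.

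The general tRNA family had 35018 CPM in replicate 1, 50579 in replicate 2 and 37468 in replicate 3 (mean 41022 ± 8367, SD, n = 3). Replicate 2 was the high library, at 1.44 times replicate 1. This is also the library in which the small subunit, large subunit and 5.8S families were lowest. The means of the general tRNA and 5.8S families differed by less than either SD.

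The selenocysteine tRNA family had 238 CPM in replicate 1, 382 in replicate 2 and 199 in replicate 3 (mean 273 ± 96.2, SD, n = 3), from 6118, 9924 and 5559 counts. Replicate 2 was again the high library, at 1.92 times replicate 3. Its 95% intervals, which cover counting error only, were 232 to 244 CPM in replicate 1, 374 to 389 in replicate 2 and 194 to 204 in replicate 3.

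**Figure D2:**
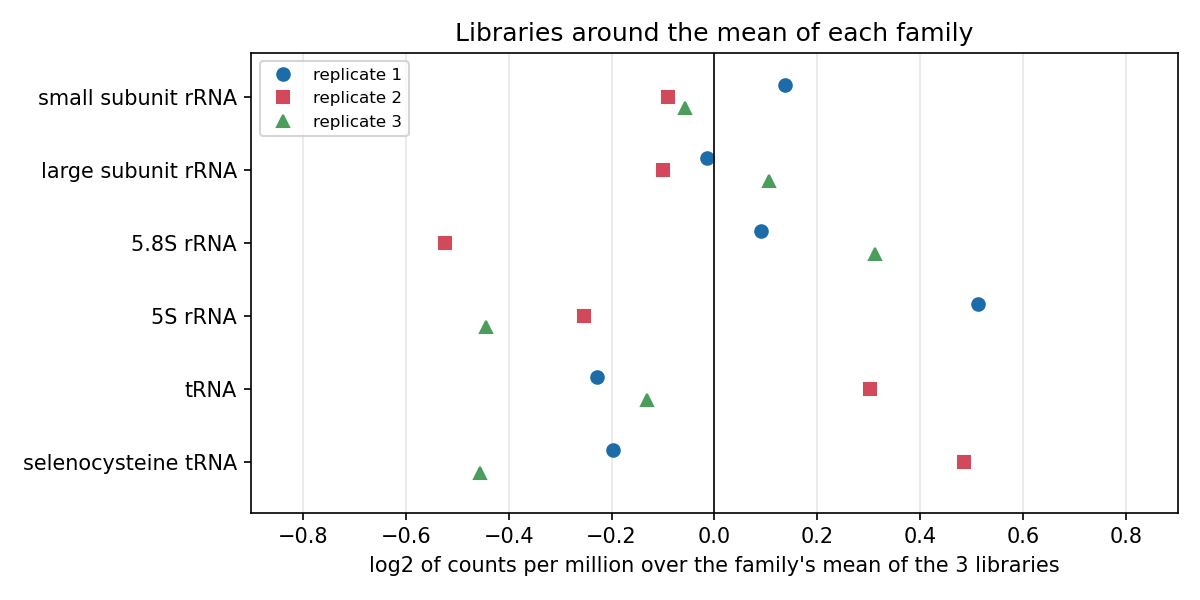
For the 6 abundant families, the log2 of the CPM in each library over the family's mean of the 3 libraries (symbols by library, line at 0 for the mean). The 5S family is 0.51 above its mean in replicate 1, 5.8S rRNA is 0.52 below its mean in replicate 2, and both tRNA families are above their mean in replicate 2 alone.

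No library was high or low across all 6 abundant families. Replicate 2 lay below the mean of the libraries in each main rRNA family, with log2 values from -0.52 for 5.8S rRNA to -0.09 for the small subunit. It lay above the mean in both tRNA families, at 0.30 for tRNA and 0.48 for the selenocysteine tRNA. From replicate 1 to replicate 2, 5.8S rRNA and 5S rRNA were lower, at 0.653 and 0.587 times their CPM, whereas tRNA and the selenocysteine tRNA were higher, at 1.44 and 1.60 times. Between replicates 2 and 3 the small subunit family differed by a factor of just 1.02, but 5.8S rRNA was 1.78 times higher in replicate 3 and the selenocysteine tRNA was at 0.521 times its level in replicate 2. Replicates have no order, so these are differences between preparations and not a trend.

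Within the reads of the 9 families, the rRNA families held 87.8%, 80.1% and 86.2% and the tRNA families 12.2%, 19.9% and 13.8% in replicates 1, 2 and 3. The small subunit family made up 51.9% ± 1.94, 5.8S rRNA 15.3% ± 3.86, the general tRNA 15.2% ± 4.01, the large subunit 12.3% ± 0.892 and 5S rRNA 5.20% ± 1.66 of them (SD, n = 3 each). The small subunit therefore kept a narrow share of this mixture, while 5.8S rRNA was ahead of tRNA in replicates 1 and 3 and behind it in replicate 2. Shares within a library are bound to each other, so a higher share of tRNA lowers those of the rRNA families.

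Long RNAs can give more reads than short ones, so levels were also compared per base for the 4 families with a usable reference length. The lengths were 1849 bases for the 18S copy and 148 bases for an annotated but diverged 5.8S copy. They were 119 bases for an annotated 5S gene and 72 bases for the median tRNA gene. For 28S rRNA the reference entry Rn28s1 has only 420 bases, a part of the RNA, and no value per base was computed. Per base, the general tRNA was the highest, with 486, 702 and 520 CPM per base in replicates 1, 2 and 3 (mean 569.7 ± 116, SD, n = 3). That value divides the reads of many different tRNA genes by the length of the median gene, so it is not coverage of a single RNA. 5.8S rRNA had 301, 197 and 351 CPM per base (mean 283 ± 78.7, SD, n = 3). 5S rRNA had 172, 101 and 88.3 CPM per base (mean 120.2 ± 44.9, SD, n = 3). The small subunit family came last, with 84.2, 72.0 and 73.6 CPM per base (mean 76.6 ± 6.66, SD, n = 3).
The order tRNA, 5.8S, 5S, small subunit was the same in all 3 libraries. The family with the most counts was thus the least covered per base of the families compared, which left out the large subunit. However, the gap between 5S and the small subunit was smaller than the SD of 5S in replicates 2 and 3 and between the means. The lengths of the reads were not analysed here, and whole molecules cannot be told apart from fragments.

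**Figure D3:**
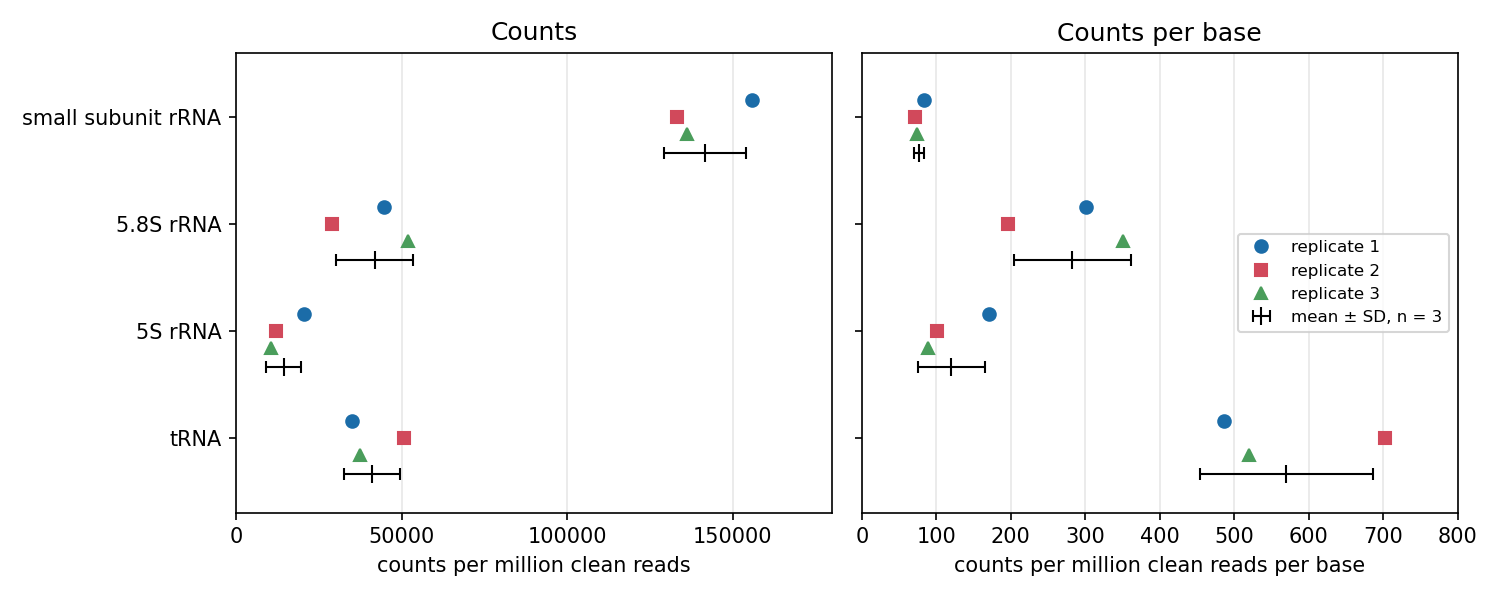
CPM (left) and CPM per base of reference length (right) of the small subunit, 5.8S, 5S and general tRNA families in each library (symbols), with mean and SD in black; both axes start at 0. The small subunit family is the highest on the left and the lowest on the right, where tRNA lies between 486 and 702 CPM per base. The tRNA family joins many genes, and its length is that of the median tRNA gene.

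Ratios between families were taken within each library, where depth cancels. They were tested as log2 ratios against 0 with an exact sign-flip permutation test, two-sided, adjusted by Benjamini-Hochberg over the 8 ratios. With 3 libraries the smallest p is 0.25, so no ratio could pass a threshold of 0.05. Of the 8 ratios, 7 had the same direction in all libraries, each with p = 0.25 and an adjusted p of 0.286 in that exact test. The eighth, 5.8S to large subunit rRNA, did not (p = 0.5, adjusted p = 0.5, same exact test).

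The small to large subunit ratio of counts was 4.68 in replicate 1, 4.25 in replicate 2 and 3.77 in replicate 3, a mean log2 ratio of 2.08 ± 0.16 (SD, n = 3). Its highest value was 1.24 times its lowest, the narrowest range of the 15 ratios that the 6 abundant families allow. That range was still wider than those of the small and large subunit families alone, 1.17-fold and 1.15-fold. In a ribosome the 18S and 28S rRNA stand in equal number, but this is a ratio of short reads and not corrected for length.

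Inside the large subunit, the 5.8S to large subunit ratio was 1.34, 0.928 and 1.44 in replicates 1, 2 and 3 (mean log2 0.28 ± 0.34, SD, n = 3), so the direction itself depended on the library. Without replicate 2 the mean log2 ratio was 0.47, and without replicate 3 it was 0.16. The 5S to large subunit ratio was 0.614, 0.383 and 0.291 (mean log2 -1.29 ± 0.55, SD, n = 3). The 5.8S to 5S ratio was 2.18, 2.43 and 4.94 (mean log2 1.57 ± 0.64, SD, n = 3). The short RNAs of the large subunit, which stand in equal number in the ribosome, therefore varied 2.26-fold against each other between libraries, with replicate 3 far above the other two. Per base the mean log2 ratio of 5.8S to 5S was 1.25. The ratios to the large subunit and to total rRNA were not computed per base.

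The small subunit to 5.8S ratio was 3.50, 4.58 and 2.62 (mean log2 1.80 ± 0.40, SD, n = 3). This ratio ranged 1.75-fold. The other ratios among RNAs of the same precursor ranged 1.24-fold for small to large subunit and 1.55-fold for 5.8S to large subunit. Whether the common precursor bears on these ranges was not tested. Per base its direction changed, with a mean log2 value of -1.85 (exact sign-flip permutation test, p = 0.25).

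tRNA exceeded 5S rRNA in every library, with a ratio of 1.72 in replicate 1, 4.22 in replicate 2 and 3.57 in replicate 3 (mean log2 1.56 ± 0.69, SD, n = 3). This ratio had the widest range of the 8, at 2.46-fold. The tRNA to total rRNA ratio was 13.8%, 24.6% and 16.0% in replicates 1, 2 and 3 (mean log2 -2.51 ± 0.43, SD, n = 3), with replicate 2 as the high library.

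The selenocysteine tRNA stood at 0.679%, 0.755% and 0.531% of the general tRNA counts in replicates 1, 2 and 3 (mean 0.655% ± 0.114, SD, n = 3). Its mean log2 ratio to tRNA was -7.27 ± 0.26 (SD, n = 3). The ratio ranged 1.42-fold, less than the 1.92-fold range of the selenocysteine tRNA itself, and was second in steadiness among the 15 pairs. Against 5.8S rRNA the selenocysteine tRNA ranged 3.42-fold, the widest of the 15 pairs.

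**Figure D4:**
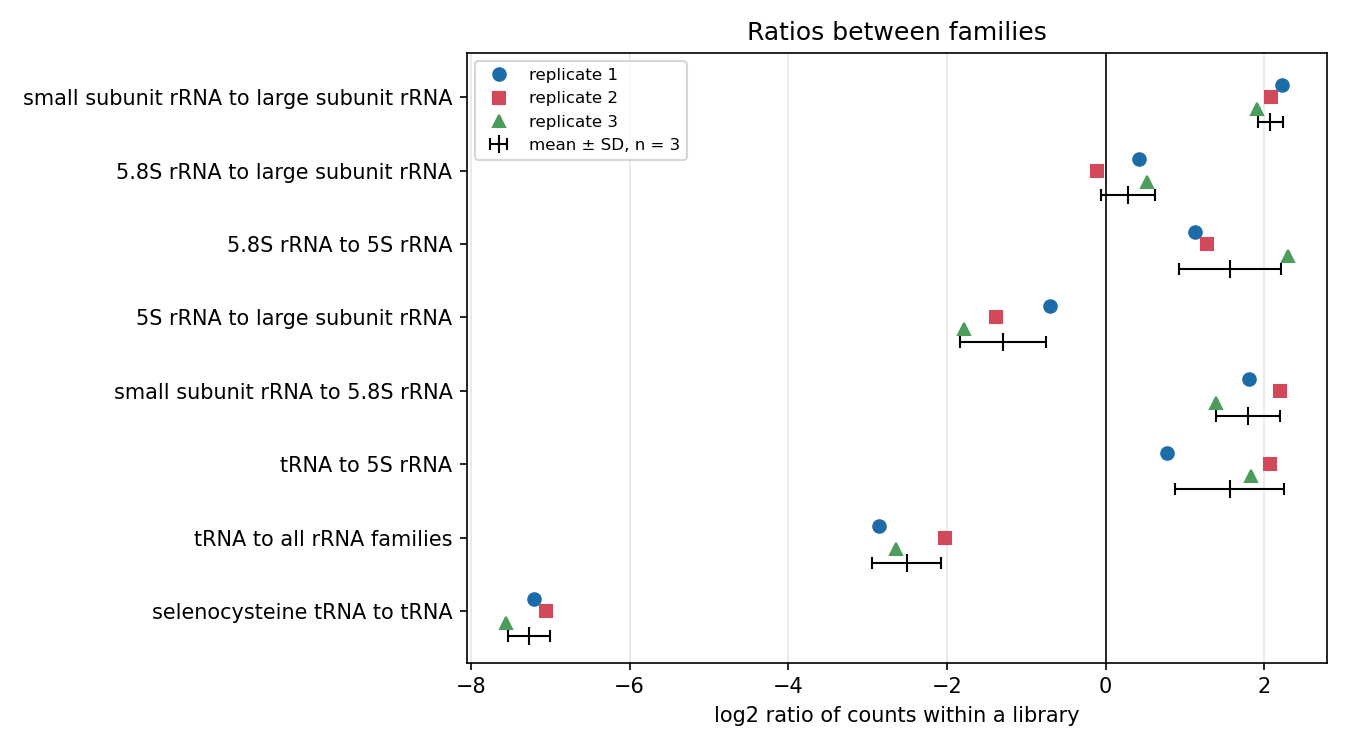
Log2 ratios of counts within each library for the 8 pairs of families (symbols by library, mean and SD in black, line at 0 for equal counts). The ratio of 5.8S to large subunit rRNA is below 0 in replicate 2 alone, and the ratios with 5S rRNA spread most, from 0.78 to 2.08 for tRNA to 5S.

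The other 3 families were rare and carry names that are not those of mouse RNAs. The pseudoknot of domain G of 23S rRNA, a model of a piece of the bacterial-type large subunit RNA whose description does not say so, had 882, 300 and 759 counts, or 34.3, 11.5 and 27.2 CPM, in replicates 1, 2 and 3. It was low in replicate 2. The left-out bacterial large subunit entry had 28888, 10983 and 26626 counts and was low in the same library. Relative to that entry the pseudoknot stood at 3.05%, 2.73% and 2.85%, a range of 1.12-fold, whereas relative to the eukaryotic large subunit family it ranged 2.80-fold. This pair of ratios was chosen after the values were seen, and with 3 libraries it is a description.
The microsporidia small subunit family, named for a group of fungal parasites, had 324, 212 and 446 counts, or 12.6, 8.15 and 16.0 CPM. Relative to the eukaryotic small subunit family it stood at 0.00809%, 0.00613% and 0.0117%, a 1.91-fold range, and relative to the left-out bacterial small subunit entry the range was 1.87-fold. How a read that matches several related rRNA models was given to a single family is not given in the sources used here.
The permuted mitochondrial 5S family had 0, 1 and 2 counts. A count of 0 of 25716952 clean reads in replicate 1 allows up to 0.117 CPM when the limit is set at 3 counts, and the upper bound of its exact 95% interval was 0.143 CPM. The values of the other libraries lie below their own limits of 3 counts, 0.115 and 0.107 CPM, so this family was not detectable above the floor of 3 counts.

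The median spread of the 6 abundant families was close to that of all abundant small RNAs. Their highest over lowest CPM had a median of 1.61, from 1.15 to 1.94. Over the 177 small RNA entries with at least 1000 counts in every library, these 6 included, the median was 1.53, from 1.01 to 39.2. The median was 2.34 for the 24 snoRNA entries and 2.71 for the 7 snRNA entries at the same minimum. As whole classes, the tRNA families ranged 1.45-fold and the rRNA families 1.24-fold, against 1.14-fold for mature miRNA, 1.99-fold for snRNA and 1.82-fold for snoRNA. The last pair were both highest in replicate 1. The medians over families are descriptions, since entries of a library are not independent.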

How the data were processed

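The labels give 3 EV preparations as biological replicates, and these were used. A supplementary figure legend of the paper also gives 3 samples for this sequencing, each pooled from 10 mice. The paper's paragraph on statistics gives a smaller number of independent cultures for small RNA sequencing. Per the paper's methods, libraries were sequenced on BGISEQ-500, low-quality reads were removed, and clean reads were mapped with Bowtie2 and cmsearch. Each read was given to a single entry in the order miRBase, piRNAbank, snoRNA, Rfam and other databases. The submitters' processing notes name mm10, and versions are not given in the sources used here. The authors deposited unnormalized read counts per entry and class, and the percent of clean reads per class, which was not used further. The deposited column headed UMI equalled CPM of clean reads on all 6253 rows that name a small RNA (within 1 in 10000) and was not used. The 39 class totals of catalogues and class files were equal.

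From the counts, CPM of clean reads (25716952 to 27939308 per library), shares and ratios were computed, with mean and SD. The 8 ratios were tested with an exact sign-flip permutation test. The ratio code was tested on simulated data. The families with at least 1000 counts in every library were described in full and the others by their counts. The members, ratios and lists were chosen with earlier results of these data known. Alternatives changed the denominator, pooling, the left-out entries, minimum counts (10), length and each replicate left out. Genes and sequences came from GENCODE vM21 and RefSeq for GRCm38, the build that mm10 names, whose lengths for 18S and 5.8S rRNA are those of single annotated copies. Sequences of the other rRNA families and of the tRNAs are not reported here. The software was SciPy 1.17.1, matplotlib 3.10.9, numpy 2.4.6 and pandas 2.3.3 under Python 3.11.15.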

Additional observations from a re-analysis of the deposited data

Results flagged for a closer look

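The 4 rRNA entries left out for their names held signal above the limit that a count of 0 allows in every library, and there was no control library. The bacterial large subunit entry had a mean of 833 CPM, the bacterial small subunit entry 303 CPM, the archaeal large subunit entry 25.7 CPM and the archaeal small subunit entry 10.2 CPM. Together they held 1588 CPM in replicate 1, 583 in replicate 2 and 1344 in replicate 3, or 0.491% ± 0.182 of all rRNA reads (SD, n = 3). The source of these reads was not tested.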

How the results depend on the processing

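All alternatives were chosen with earlier results of these data known. The share of the 9 families was 27.3% of the clean reads, 32.1% of the mapped reads and 76.9% of the annotated ones, as smaller denominators give by construction. The log2 ratio of small subunit to 5.8S rRNA reversed from 1.80 to -1.85 per base, because the 18S copy is the longer. Only 3 of the 8 ratios could be computed per base, those among 18S, 5.8S, 5S and tRNA, and the other 2 kept their direction. The other 20 alternatives of the share, the number of families and the 8 log2 ratios kept the direction of each ratio, the share within its SD and the number of families within 1.5 times. Leaving out each replicate in turn gave shares from 26.4% to 28.1%, and 9 families each time. The same omissions moved the mean log2 ratio of 5.8S to large subunit rRNA from 0.16 to 0.47 and that of tRNA to 5S from 1.31 to 1.96, and no log2 ratio changed sign. For single families, 10 of 40 other alternatives moved a value beyond the SD between libraries, all by a smaller denominator. No paired analysis was possible because all libraries belong to the same condition. The 3 rare families limit what depth can show, and the ratios rest on 3 libraries.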
